A study of Mus musculus with 12 samples.

Results

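The genes that encode heterogeneous nuclear ribonucleoproteins (hnRNPs) and serine/arginine-rich (SR) splicing proteins were followed through the cortex of 4 groups of mice. Members were taken by symbol from the deposited table of raw read counts, as symbols beginning with Hnrnp or Hnrp (20 hnRNP members) and with Srsf, Srrm, Tra2 or Srpk (21 SR members). These 41 genes are 41 of the 24062 symbols in the table, and all 41 were among the 15440 genes that passed a filter on low counts. The hnRNP members comprise 7 A/B and D type genes, 4 F/H genes and 9 others. The SR members comprise 11 Srsf genes, 5 Srrm genes, 3 Srpk kinases and the 2 Tra2 genes.

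Both families bind pre-mRNA and set which splice sites the spliceosome uses. SR proteins bind exonic sequences through RNA recognition motifs and recruit spliceosomal components through a domain rich in arginine and serine, which the SRPK and CLK kinases phosphorylate. Many hnRNPs act in the opposite sense and repress splice sites, and they also package nascent transcripts and govern mRNA transport and stability. Inclusion of exon 10 of the tau gene is among the events that SR proteins and hnRNPs are known to regulate. TIA1, which the study reduced, is an RNA-binding protein that promotes recognition of weak 5′ splice sites and assembles stress granules. A count per gene adds up all transcripts of that gene, so the values below are RNA abundance and say nothing of splicing.

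RNA came from the cortex of mice aged 9 months, with 3 mice per group and 1 library per mouse. WT mice carried neither alteration, Tia1+/- mice carried 1 disrupted Tia1 allele, PS19 mice carried a human P301S tau (MAPT) transgene driven by the Prnp promoter with both Tia1 alleles intact, and P301S Tia1+/- mice carried the transgene together with 1 disrupted Tia1 allele. The transgenic mice came from a cross of the PS19 line with a Tia1 mutant line on a C57BL/6J background, and mice with end-stage signs were left out by the study. The comparisons ask how P301S tau and the loss of 1 Tia1 allele, alone and together, relate to the abundance of these splicing regulators.

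Counts per library summed to between 11978962 and 19146484. Tia1 itself had 93.8, 76.8 and 75.4 CPM (counts scaled to a common normalized library size) for WT, 61.4, 62.8 and 79.8 for Tia1+/-, 77.9, 70.8 and 71.9 for PS19 and 72.6, 73.5 and 77.8 for P301S Tia1+/- libraries. The groups overlapped, and its log2 fold changes were −0.27 (edgeR's quasi-likelihood test, adjusted p = 0.239) for Tia1+/- vs. WT and 0.022 (adjusted p = 0.934) for P301S Tia1+/- vs. PS19, so the counts do not separate the Tia1 genotypes and group names stand for the libraries so labelled. The P301S transgene is human, and no row of the mouse gene table was taken as a measure of it. Mouse Prnp ranged from 1334 to 1879 CPM in WT, 996 to 1922 in Tia1+/-, 2018 to 2158 in PS19 and 1404 to 1535 in P301S Tia1+/-. Mouse Mapt ranged from 256 to 413, 344 to 502, 439 to 462 and 336 to 357 CPM in the same order. In both genes P301S Tia1+/- lay below PS19 without overlap. Whether reads of the transgene enter these rows was not tested. Xist, expressed from the inactive X chromosome of females, had between 3304 and 5693 counts in each of the 6 libraries with a Tia1+/- label and between 0 and 13 in the other 6, and 4 Y-linked genes showed the opposite pattern. Tia1 genotype and sex therefore cannot be told apart in this series, although the study's methods describe male mice. Markers of neurons, the defining cells of cortex, were abundant in every group (6 of 6 genes, summed level between 4994 and 7542 CPM). The summed level of 7 markers of the olfactory bulb, a region next to the cortex, was 925 CPM in WT replicate 1 and 129.8 and 31.5 in the other two WT libraries. It ranged from 5.12 to 109.4 CPM in Tia1+/-, from 4.62 to 11.3 in PS19 and from 564 to 704 in P301S Tia1+/- mice. Family medians for each comparison with WT are given with and without WT replicate 1. Leaving it out does not even out the bulb signal, since the other WT libraries still lie above every PS19 library. All P301S Tia1+/- libraries carry this signal, which cannot be told apart from that genotype. In both groups that lost a Tia1 allele, the genotype field and the title of each library disagree on the transgene, and titles were used here. Exchanging the labels of these groups was run as an alternative, and the number of members whose sign it turns is given with each comparison.

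Within the hnRNP family, abundance was compared as CPM per kilobase of annotated exon. Hnrnpk, a KH-domain protein that binds C-rich RNA, had the highest level, a mean of 75.8 CPM per kb over the 12 libraries. Its values were 588, 538 and 491 CPM for WT, 455, 459 and 467 for Tia1+/-, 483, 461 and 478 for PS19 and 523, 486 and 452 for P301S Tia1+/- libraries. The WT libraries held the highest of these, and both the Tia1+/- and the PS19 libraries lay wholly below WT, while the P301S Tia1+/- libraries overlapped it. Hnrnpc (49.6 CPM per kb), a core hnRNP that coats nascent RNA, Hnrnpab (49.5) and Hnrnph2 (46.6) followed. Neighbours in this order, such as Hnrnpf (41.8) and Hnrnph1 (41.7), differed by less than their spread over libraries, which had coefficients of variation of 19.1% and 21.8%. The least variable members were Hnrnpul1 (4.61%), Hnrnpl (5.28%) and Hnrnpdl (6.42%).

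The lowest hnRNP was Hnrnpa1, the prototype splicing repressor of the family, at 1.85 CPM per kb. It was measured at 8.32, 4.23 and 6.39 CPM for WT, 5.45, 5.58 and 5.93 for Tia1+/-, 5.66, 6.64 and 5.30 for PS19 and 5.91, 5.22 and 5.47 for P301S Tia1+/- libraries, which corresponds to as few as 50 counts in a library. All 4 groups overlapped, and its 95% interval for PS19 vs. WT ran from −0.58 to 0.37 on the log2 scale. This gene has many near-identical copies elsewhere in the genome: 46.4% of the 50-base windows of its longest coding transcript also occur in other annotated genes, 19 of them in all. The following stretch of its longest open reading frame, bases 455 to 504 of 1122 (gene on chromosome 15, 103240432 to 103246692, plus strand, GRCm38), is shown because it recurs unchanged in 9 other genes of the GENCODE annotation.
Hnrnpa1 coding stretch: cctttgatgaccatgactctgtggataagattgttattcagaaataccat
A read from such a stretch has several equally good placements, and how the counting treated them is not given in the sources used here. The share of such windows was also high in Hnrnpf (67.3%), Srsf4 (65.4%), Hnrnpk (37.8%), Srsf2 (35.2%) and Srsf3 (31.5%), so their levels may carry this uncertainty. Windows cover the whole transcript and matches on either strand were counted. Genes that overlap at the same locus were not excluded, and for Srsf2 the gene sharing most was Mettl23. It was 0 in Hnrnpu, Srsf11, Tra2a, Srsf6, Srsf9 and Hnrnpll.

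Among SR members the order was led by Srsf5 (51.4 CPM per kb), an SR protein with paired RNA recognition motifs. Its values were 216, 226 and 190.3 CPM for WT, 205, 227 and 215 for Tia1+/-, 222, 202 and 203 for PS19 and 185, 178 and 189 for P301S Tia1+/- libraries, and the P301S Tia1+/- libraries lay below all others. Srsf1 (39.2 CPM per kb), the prototype SR protein, Srsf7 (39.0) and Srsf3 (28.6), both also adaptors of mRNA export, and Srsf2 (26.9) came next. The kinase Srpk2 (24.1) was far above Srpk1 (6.08) and Srpk3 (1.60). Srrm2 (17.4), a large spliceosomal scaffold, exceeded its relatives Srrm1 (4.31), Srrm3 (3.64) and Srrm4 (1.85), the neuronal regulator of microexons. The lowest was Srrm4os (1.01), a non-coding transcript that overlaps Srrm4 on the other strand and enters the family only by its symbol. It is not known whether the counting used strand, so reads of Srrm4 and Srrm4os may not be fully separated.

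**Figure D1:**
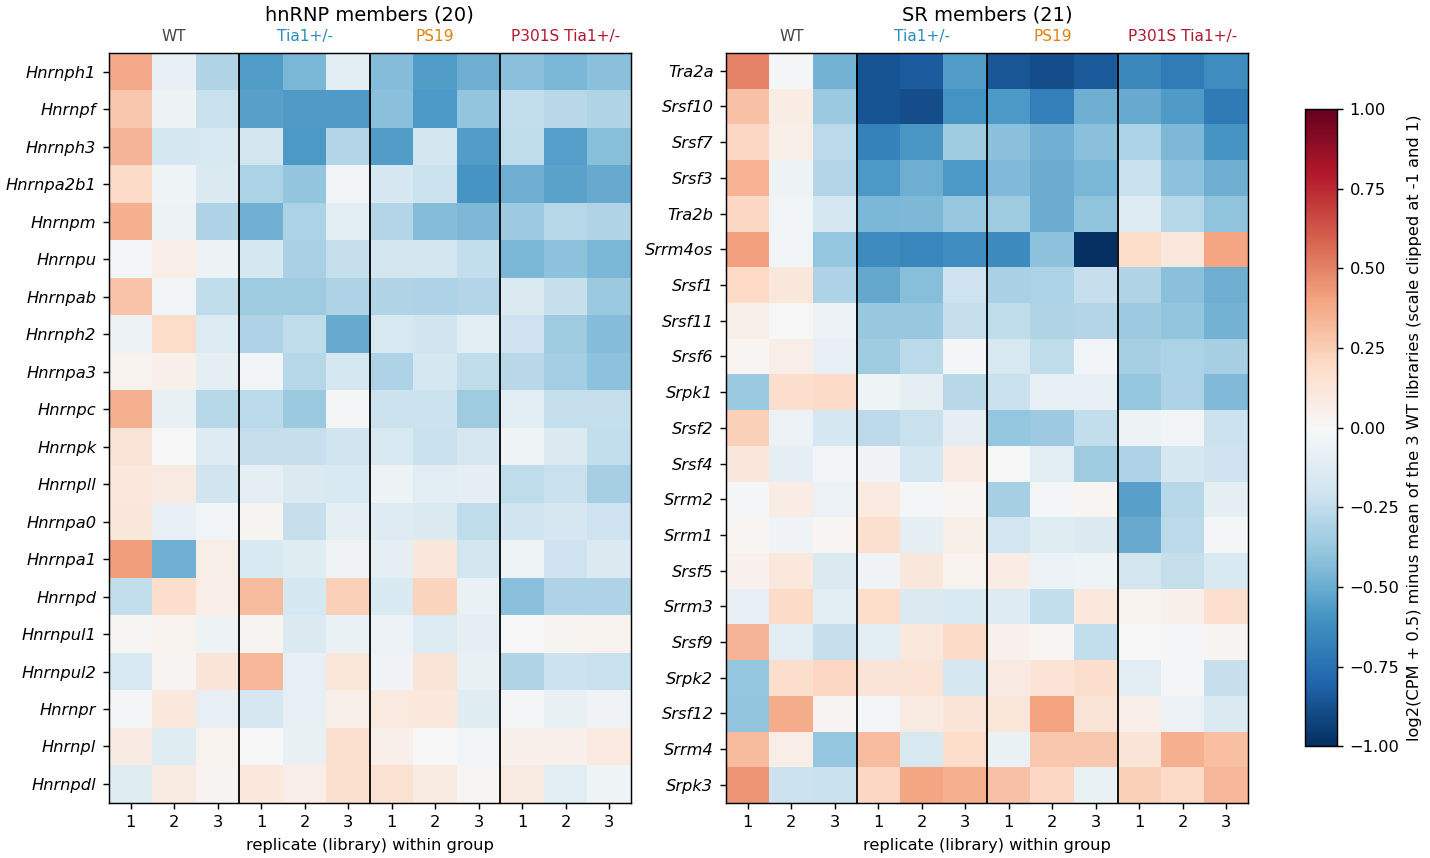
Heat map of the 20 hnRNP members (left) and 21 SR members (right) in each of the 12 libraries, as log2(CPM + 0.5) minus the mean of the 3 WT libraries, with the scale clipped at −1 and 1. Replicates stand in columns and groups are separated by lines. Many rows are red in WT replicate 1 and blue in the 9 libraries of the other groups, as for Tra2a, Srsf10 and Hnrnpf.

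Summed over the family, hnRNP RNA was highest in WT (3821 ± 306 CPM, SD, n = 3) and lay at 3336 ± 169 for Tia1+/-, 3314 ± 90.4 for PS19 and 3169 ± 82.3 for P301S Tia1+/-. The WT libraries held 4120.1, 3835 and 3509 CPM, each above every library of the other groups, of which the highest was 3492 (Tia1+/- replicate 3). The SR sums were 2416 ± 206 CPM for WT, 2021 ± 31.4 for Tia1+/-, 2050.1 ± 49.2 for PS19 and 1939 ± 47.2 for P301S Tia1+/-. Here the WT libraries held 2566, 2502 and 2182 CPM, and the highest value elsewhere was 2106 in PS19 replicate 3. In both families WT replicate 1 was the highest and WT replicate 3 the lowest of the WT libraries. This is also their order by bulb marker level, and the part of that signal in the sums was not tested. These sums weigh the abundant genes most, and with tissue RNA, fewer cells of a type and less RNA per cell cannot be told apart.

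By group means, WT was the highest group for 14 of 20 hnRNP and 11 of 21 SR members. P301S Tia1+/- was the lowest for 9 hnRNP and 10 SR members. The share of all genes with the same highest or lowest group was not computed, so these counts only describe the members. In 3 hnRNP members (Hnrnpf, Hnrnph3 and Hnrnpu) and 4 SR members (Srsf7, Srsf10, Srsf11 and Tra2a) all WT libraries lay above all 9 others, a pattern met by 3.34% of all genes tested. No member had all WT libraries below the rest. WT replicate 1 was the single highest library for 11 hnRNP and 12 SR members, against 20.6% of all genes, and the part of the bulb signal in this was not tested.

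**Figure D2:**
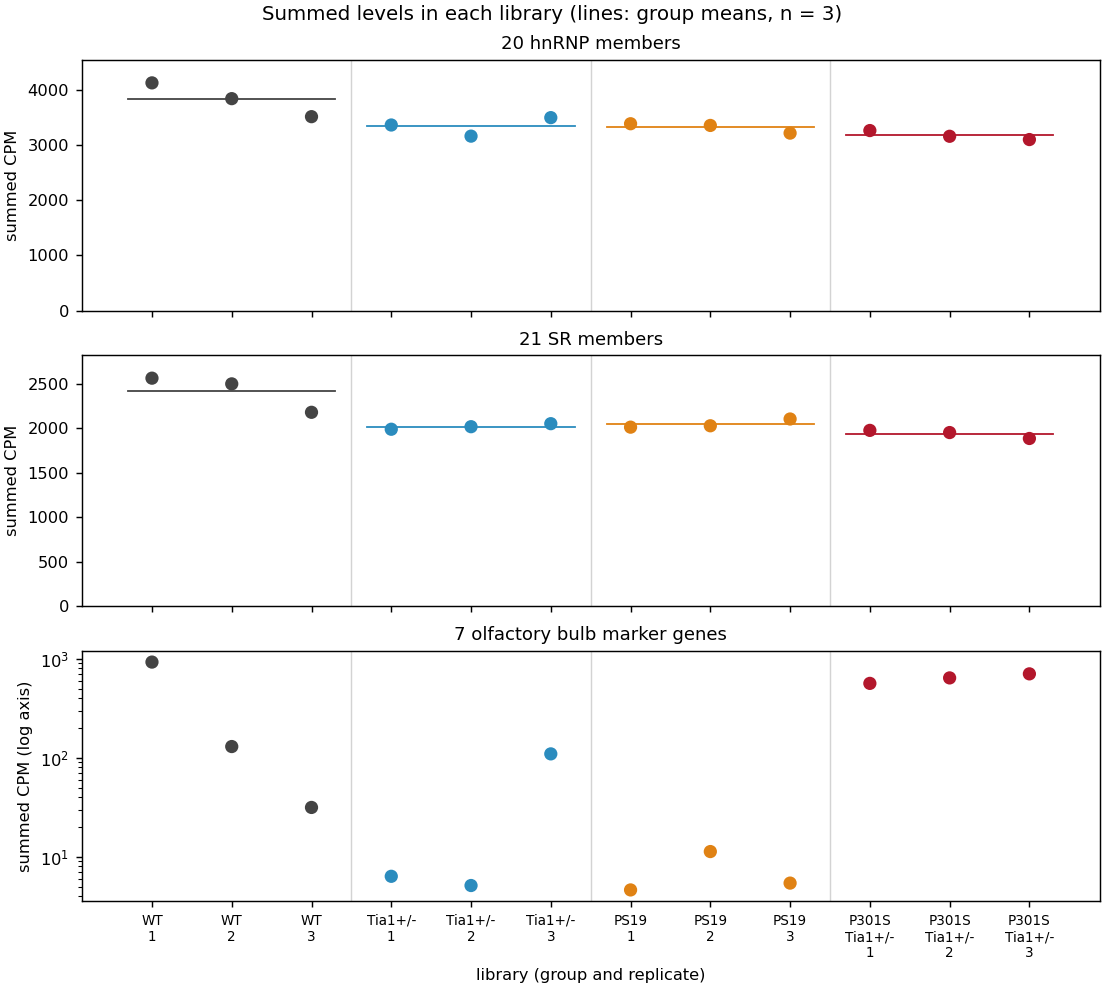
Summed CPM of the 20 hnRNP members (top), the 21 SR members (middle) and 7 olfactory bulb marker genes (bottom, log axis) in each library, with lines at the group means (n = 3) in the upper panels. The 3 WT libraries are the highest in both families. WT replicate 1 and all P301S Tia1+/- libraries are high in the bulb markers, while the family sums of P301S Tia1+/- mice are the lowest by group mean.

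P301S tau with both Tia1 alleles intact was examined in PS19 vs. WT. Most members lay lower in PS19, 15 of 20 hnRNP and 17 of 21 SR genes, with median log2 fold changes of −0.18 and −0.16 beside −0.0066 over all genes, of which 51% lay below 0. No member passed an adjusted p under 0.05 in edgeR's quasi-likelihood test, and neither did any other gene (background 0% of 15440). At an unadjusted p under 0.05, 8 hnRNP and 9 SR members were lower and none was higher, where 9.73% of all genes were lower and 6.56% higher. The DESeq2 Wald test called 2 hnRNP members (Hnrnpf and Hnrnpu) and 6 SR members (Srsf3, Srsf7, Srsf10, Srsf11, Tra2a and Tra2b), all lower, and 2.77% of all genes. The groups did not overlap for 10 hnRNP and 9 SR members, each with PS19 below WT, against 11% of all genes lower and 9.75% higher. With 3 mice against 3, an exact permutation test of 1 gene cannot give a 2-sided p under 0.10.

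Among hnRNPs the F/H type, which bind runs of guanines, lay lower in all 4 genes, with a median log2 fold change of −0.47. Hnrnpf had 189.6, 152 and 135 CPM for WT, 108, 106 and 106 for Tia1+/-, 117, 106 and 119.7 for PS19 and 133, 129 and 127 for P301S Tia1+/- libraries. The WT libraries were highest, PS19 and Tia1+/- overlapped each other, and P301S Tia1+/- mice lay between them and WT. For PS19 vs. WT its log2 fold change was −0.47 (SE 0.110, adjusted p = 0.157). Hnrnph1 had 391, 283 and 244 CPM for WT, 204, 218 and 279 for Tia1+/-, 222, 203 and 214 for PS19 and 224, 219 and 225 for P301S Tia1+/- libraries. WT and PS19 did not overlap, Tia1+/- replicate 3 reached into the WT range, and the log2 fold change for PS19 vs. WT was −0.52 (SE 0.162, adjusted p = 0.191). Hnrnph3, at few counts, gave −0.47 (adjusted p = 0.269) and the X-linked Hnrnph2 gave −0.16 (adjusted p = 0.459).

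The A/B and D type hnRNPs were lower in 5 of 7 genes, with Hnrnpa2b1 at −0.32, Hnrnpab at −0.32 and Hnrnpa3 at −0.25. Hnrnpd (AUF1, a factor of AU-rich mRNA decay) and Hnrnpdl gave 0.0012 and 0.084. Of the other hnRNPs, Hnrnpm gave −0.42, Hnrnpc −0.29, Hnrnpu −0.20 and Hnrnpk −0.19, whereas Hnrnpl, Hnrnpr, Hnrnpul1 and Hnrnpul2 lay between −0.098 and 0.029. None of these had an adjusted p below 0.213.

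In the SR family the fold changes were wider. Tra2a, a homologue of the fly transformer-2 protein that binds exonic enhancers rich in GAA, had 131, 91.3 and 66.7 CPM for WT, 50.7, 52.0 and 62.8 for Tia1+/-, 50.9, 49.9 and 51.6 for PS19 and 59.2, 57.0 and 60.0 for P301S Tia1+/- libraries. Its WT libraries spread over nearly the whole range above the other groups, and the PS19 libraries were close together below them. The log2 fold change was −0.92 (SE 0.191, adjusted p = 0.156), the lowest of any member. Its paralogue Tra2b had 147, 125 and 112 CPM for WT, 92.5, 92.9 and 97.9 for Tia1+/-, 99.6, 90.1 and 96.2 for PS19 and 116, 104 and 96.1 for P301S Tia1+/- libraries. PS19 lay below WT without overlap, at −0.43 (SE 0.105, adjusted p = 0.159).

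Of the 11 Srsf genes 10 were lower in PS19. Srsf10, an SR protein that becomes a splicing repressor when dephosphorylated, had 198, 170.4 and 125 CPM for WT, 88.6, 87.3 and 107 for Tia1+/-, 108, 101 and 115 for PS19 and 114, 109 and 98.6 for P301S Tia1+/- libraries. All 9 libraries outside WT were below the lowest WT library, and PS19 vs. WT gave −0.61 (SE 0.150, adjusted p = 0.159). Srsf11, an SR-related protein, had 92.3, 88.2 and 85.2 CPM for WT, 68.0, 68.0 and 75.1 for Tia1+/-, 74.1, 71.9 and 72.3 for PS19 and 68.7, 67.3 and 63.6 for P301S Tia1+/- libraries. Its WT libraries were tightly grouped above the rest, and the log2 fold change was −0.28 (SE 0.0697, adjusted p = 0.159). Srsf3 (−0.49), Srsf7 (−0.45), Srsf2 (−0.34) and Srsf1 (−0.30) followed, and Srsf12 was the exception at 0.19 (95% interval −0.18 to 0.56). The kinases Srpk1, Srpk2 and Srpk3 gave −0.15, 0.11 and 0.13, and the coactivators Srrm1 and Srrm2 gave −0.16 and −0.11.

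Without WT replicate 1 the hnRNP median for PS19 vs. WT was −0.11 and the SR median −0.14. At an unadjusted p under 0.05, 4 hnRNP and 9 SR members were then lower and 1 SR member higher. That fit put 1778 of 15649 genes under this p, 847 of them lower (5.41%). Hnrnpf then gave −0.32, Hnrnph1 −0.30 and Tra2a −0.63. With the bulb marker level as a covariate the medians were −0.011 and −0.077. Exchanged labels turned 0 of 41 signs here, since neither group is involved. All 7 bulb genes lay lower in PS19 mice (median log2 fold change −6.55), and other marker lists lay higher, with 5 of 5 oligodendrocyte genes (median 0.54), 5 of 5 microglial genes (0.50) and 7 of 8 striatal genes (1.01), none called, and their part in these values was not tested.

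**Figure D3:**
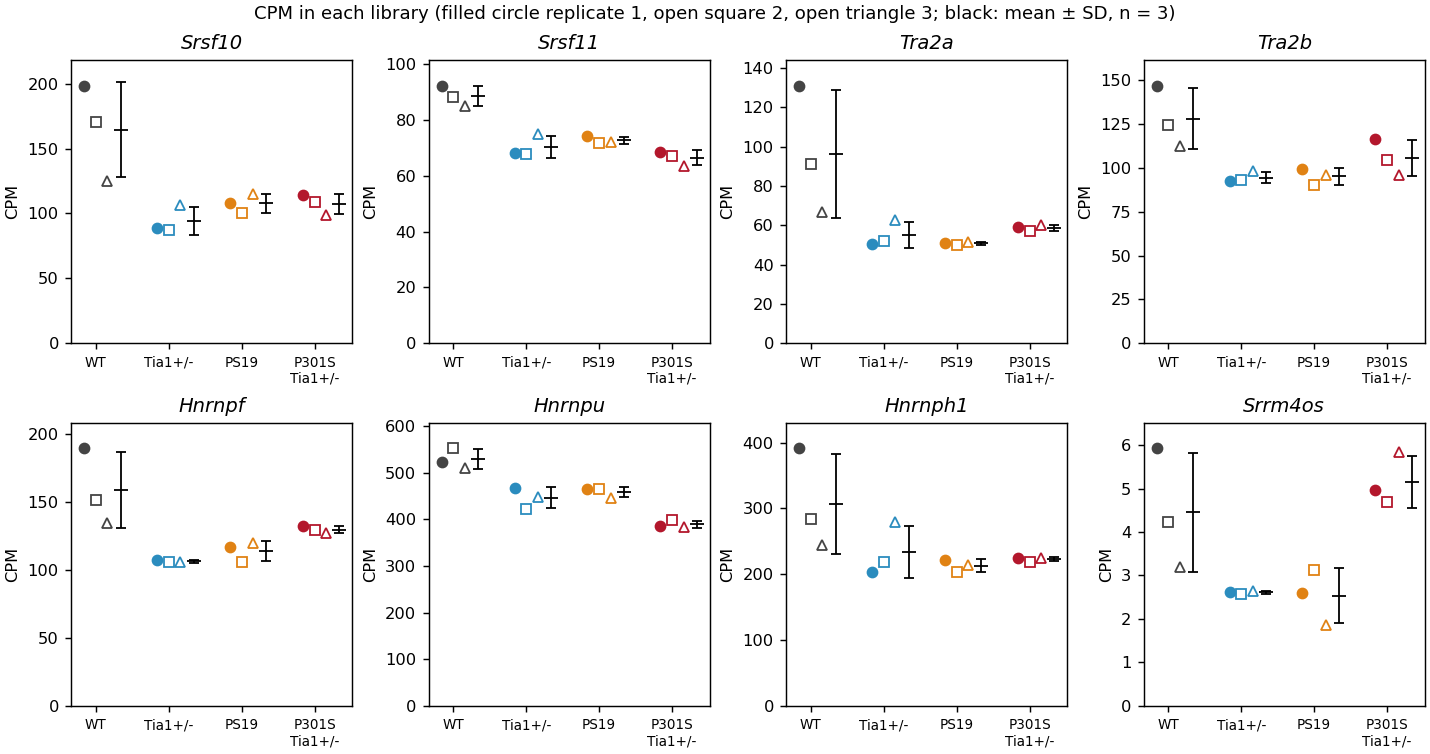
CPM of 8 members in each library by group, with symbols for the replicates and the mean ± SD (n = 3) in black. Axes start at 0. In Srsf10, Srsf11, Tra2a, Hnrnpf and Hnrnpu the 3 WT libraries lie above the 9 others, and Srrm4os is high in WT replicate 1 and in all P301S Tia1+/- libraries.

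Loss of 1 Tia1 allele without the transgene was examined in Tia1+/- vs. WT. Here 1 member of each family was called, both lower: Srsf10 and Hnrnpf, against 0.712% of all genes called, 0.44% lower and 0.272% higher. Lower values were found for 16 of 20 hnRNP and 13 of 21 SR members, with medians of −0.19 and −0.15 beside 0.0057 over all genes, of which 49.3% lay below 0. At an unadjusted p under 0.05, 6 hnRNP and 8 SR members were lower and none higher (10.5% of all genes lower, 8.63% higher). The libraries of 6 hnRNP and 7 SR members did not overlap, all lower in Tia1+/- mice (10.4% of all genes lower, 9.6% higher). The WT libraries are those of the comparison with PS19, so the fold changes of both comparisons share them.

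Srsf10 fell by 42.8%, a log2 fold change of −0.81 (SE 0.151, edgeR adjusted p = 0.0446), from 165 ± 36.9 CPM in WT to 94.2 ± 10.8 in Tia1+/- mice. Hnrnpf fell by 32.9%, a log2 fold change of −0.58 (SE 0.111, edgeR adjusted p = 0.0452), from 159 ± 28.1 to 106 ± 1.07 CPM. Both calls were just inside the threshold of 0.05, and with the labels of the Tia1+/- and P301S Tia1+/- libraries exchanged the calls of this comparison are those of P301S Tia1+/- vs. WT. Leaving out 1 library other than WT replicate 3 removed both, with adjusted p values from 0.0594 to 0.140 for Srsf10 and from 0.0612 to 0.140 for Hnrnpf, and without WT replicate 1 the log2 fold changes were −0.63 and −0.41. Hnrnpf shares 67.3% of the windows of its longest coding transcript with other genes, as given above.

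Next by p in the SR and hnRNP families were Srsf11 at −0.33 (SE 0.0698, adjusted p = 0.0576) and Hnrnph2, which had 226, 266 and 213 CPM for WT, 189, 196 and 165 for Tia1+/-, 209, 204 and 218 for PS19 and 203, 183 and 173 for P301S Tia1+/- libraries. Hnrnph2 lay lower in Tia1+/- than in WT without overlap, at −0.36 (SE 0.103, adjusted p = 0.104), and this gene is X-linked, while these groups also differ in sex. Srsf7 (−0.55), Srsf3 (−0.57), Tra2a (−0.80) and Tra2b (−0.44) had adjusted p values between 0.0699 and 0.0768. Of the 8 SR members with higher values in Tia1+/- mice, Srpk3, also X-linked, had the largest at 0.32 (95% interval −0.16 to 0.80), at no more than 5.36 CPM in any library. Srrm1, Srrm2 and Srsf5 gave 0.045, 0.035 and 0.035. Without WT replicate 1 the hnRNP median was −0.088 and the SR median −0.14. At an unadjusted p under 0.05, 3 hnRNP and 7 SR members were then lower and 1 SR member higher. That fit put 2510 of 15649 genes under this p, 1170 of them lower (7.48%). The SR median was −0.092 without WT replicate 2 and −0.080 without WT replicate 3. With the bulb marker level as a covariate the hnRNP median was −0.0030 and the SR median −0.12. Exchanged labels turned 12 of 41 signs, among them that of Srrm4os (−0.77 to 0.21), the only turned member of the 14 with an unadjusted p under 0.05.

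Markers of other cells and regions moved with this comparison. All 8 striatal genes (median log2 fold change 2.75), all 5 oligodendrocyte genes (0.82, 1 called) and all 3 pituitary genes (2.31, 1 called) lay higher in Tia1+/- mice, and all 7 bulb genes lay lower (−3.17). Tia1+/- replicate 3 stood apart, with 1906 CPM of striatal markers against 138 and 142 in the other Tia1+/- libraries and 134 CPM of cortex markers against 420.2 and 388. Their part in these values was not tested. Without this library Srsf10 gave −0.90 and Hnrnpf −0.57, and the SR median was −0.11.

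Both alterations together were compared with neither in P301S Tia1+/- vs. WT. This contrast had the lowest family medians, −0.27 for hnRNP and −0.25 for SR members beside 0.024 over all genes. Lower values were found for 18 of 20 hnRNP and 17 of 21 SR members, against 46.6% of all genes, including all 11 Srsf genes, all 7 A/B and D type and all 4 F/H type hnRNPs. Hnrnpu and Srsf11 were called, both lower, against 1.31% of all genes called, 0.842% lower and 0.473% higher. At an unadjusted p under 0.05, 13 hnRNP and 11 SR members were lower and none was higher (9.46% of all genes lower, 8.57% higher). Without WT replicate 1 the hnRNP median was −0.13 and the SR median −0.24. At an unadjusted p under 0.05, 7 hnRNP and 9 SR members were then lower and 2 SR members higher. That fit put 4703 of 15649 genes under this p, 2158 of them lower (13.8%). In all 12 libraries the groups did not overlap for 11 hnRNP and 8 SR members, all lower (10.8% of all genes lower, 23.2% in either direction).

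Hnrnpu, a nuclear scaffold protein that binds RNA and chromatin, had 523, 552 and 511 CPM for WT, 468, 422 and 449 for Tia1+/-, 466, 464 and 446 for PS19 and 385, 398 and 384 for P301S Tia1+/- libraries. All WT libraries lay above the 9 others, and all P301S Tia1+/- libraries lay below the 9 others. It fell by 26.4% relative to WT, a log2 fold change of −0.44 (SE 0.0702, edgeR adjusted p = 0.0193), which was −0.44 without WT replicate 1 as well. Srsf11 fell by 24.9%, at −0.41 (SE 0.0698, edgeR adjusted p = 0.0240), and by 0.37 on the log2 scale without WT replicate 1, a fit that also called Srpk1 (lower) and in all 10.5% of all genes. Both calls were lost without WT replicate 2 or without any 1 of the P301S Tia1+/- libraries, where adjusted p rose to between 0.0747 and 0.130. Neither gene shares a window of its longest coding transcript with another gene.

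Hnrnpa3, an A/B type hnRNP, had 228, 230.3 and 209 CPM for WT, 218, 182 and 196 for Tia1+/-, 179, 196 and 186 for PS19 and 184, 175 and 167 for P301S Tia1+/- libraries, and WT lay above the P301S Tia1+/- libraries at −0.35 (SE 0.0845, adjusted p = 0.0657). Srsf10 gave −0.62 (SE 0.150, adjusted p = 0.0647), Tra2a −0.71, Hnrnpa2b1 −0.52, Srsf7 −0.46 and Srsf1 −0.42. The kinase Srpk1 was at −0.40 (adjusted p = 0.150), while Srpk2 and Srpk3 were at −0.14 and 0.25. Srrm4 (0.24), Srrm4os (0.21), Srrm3 (0.08), Hnrnpl (0.064) and Hnrnpul1 (0.02) were the others with values above 0. Exchanged labels turned 12 of 41 signs, and of the 24 members with an unadjusted p under 0.05 they turned Hnrnpd (to 0.13), Hnrnpul2 (to 0.13), Srrm2 (to 0.035) and Srsf5 (to 0.035). Cortex marker genes were lower in P301S Tia1+/- mice (5 of 5 genes, summed 167 to 197 CPM, against 123.6 to 376 in WT, of which WT replicate 1 was the lowest), and their part in these values was not tested.

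**Figure D4:**
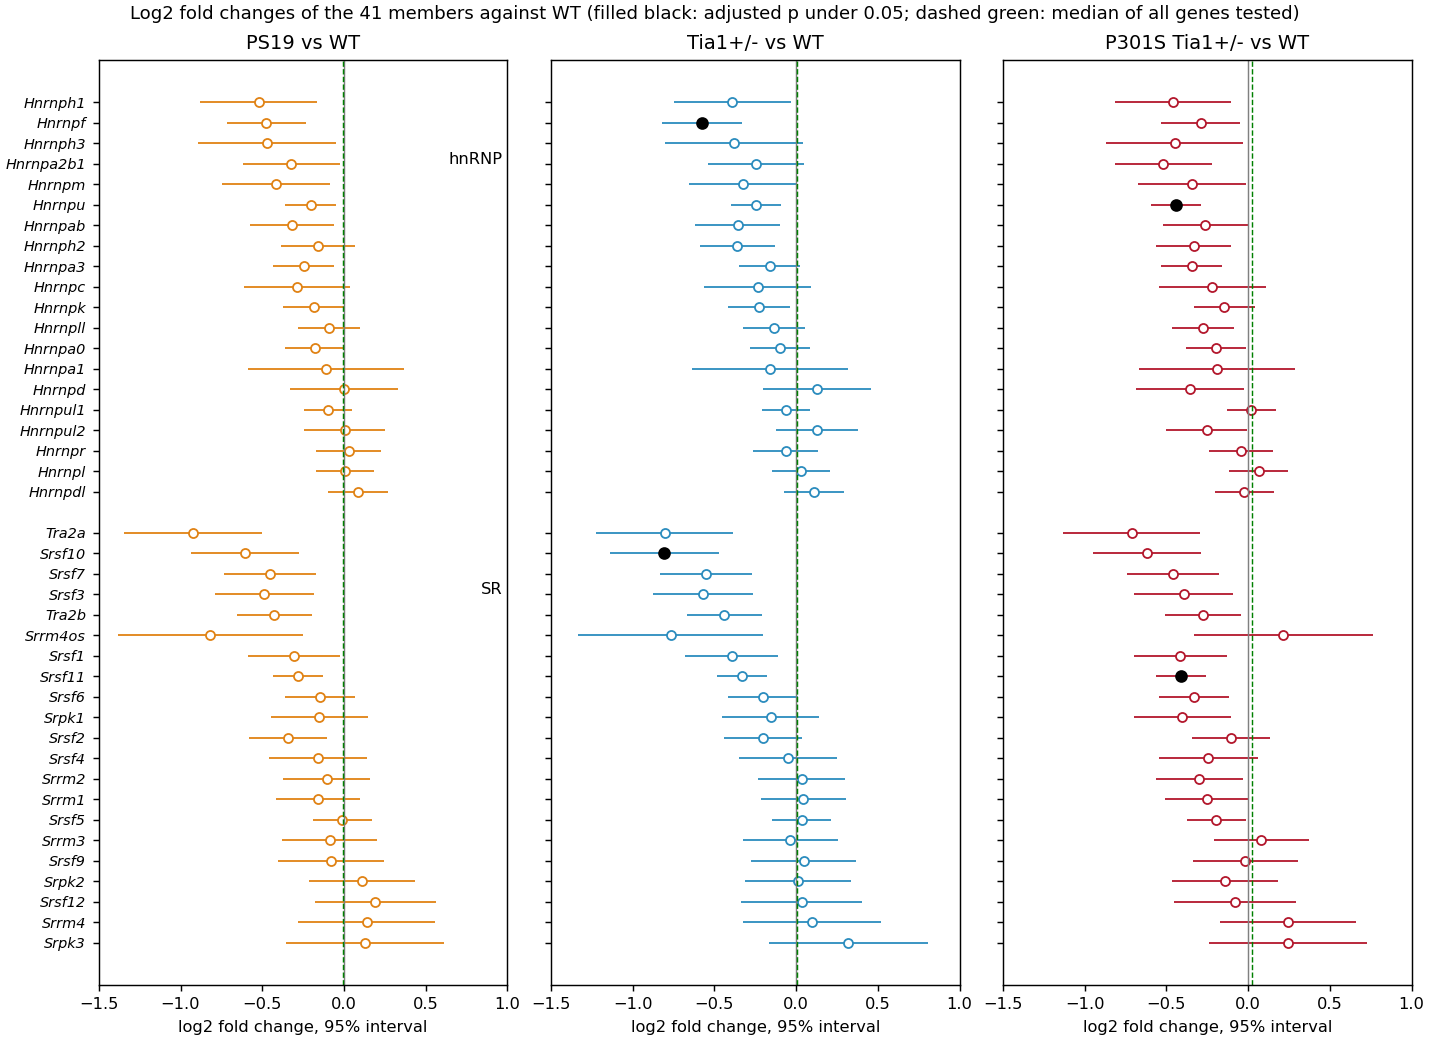
Log2 fold changes of the 41 members in the 3 comparisons with WT, with 95% intervals from the edgeR fit. Filled black points have an adjusted p under 0.05 and the dashed green line is the median of all genes tested. Most points lie left of 0 in each panel, and the calls are Srsf10 and Hnrnpf in Tia1+/- vs. WT and Hnrnpu and Srsf11 in P301S Tia1+/- vs. WT.

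The sequences around the start sites of the 4 called genes are shown because these members passed the test in a comparison with WT. Each window runs from 250 bases before to 50 after the first listed RefSeq start of the gene (build GRCm38.p6), in the direction of transcription, with capitals marking matches, on either strand, to GGGCGG (the core of the site for Sp1-type factors), to the box CCAAT and to the ETS-type core TTCCGG.
Srsf10, chr4:135855821-135856120, plus strand: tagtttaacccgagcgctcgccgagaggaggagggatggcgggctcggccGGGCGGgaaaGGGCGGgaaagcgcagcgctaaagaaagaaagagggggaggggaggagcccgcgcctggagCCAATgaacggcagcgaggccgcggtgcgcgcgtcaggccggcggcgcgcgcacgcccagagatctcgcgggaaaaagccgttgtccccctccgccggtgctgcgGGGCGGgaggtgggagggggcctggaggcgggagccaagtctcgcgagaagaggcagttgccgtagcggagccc
Hnrnpf, chr6:117900090-117900389, plus strand: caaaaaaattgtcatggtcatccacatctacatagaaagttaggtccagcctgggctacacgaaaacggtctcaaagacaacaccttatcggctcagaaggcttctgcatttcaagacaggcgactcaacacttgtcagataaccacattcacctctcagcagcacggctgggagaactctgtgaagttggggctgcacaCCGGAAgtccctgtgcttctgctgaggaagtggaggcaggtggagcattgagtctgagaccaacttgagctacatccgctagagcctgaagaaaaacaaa
Hnrnpu, chr1:178337766-178338065, minus strand: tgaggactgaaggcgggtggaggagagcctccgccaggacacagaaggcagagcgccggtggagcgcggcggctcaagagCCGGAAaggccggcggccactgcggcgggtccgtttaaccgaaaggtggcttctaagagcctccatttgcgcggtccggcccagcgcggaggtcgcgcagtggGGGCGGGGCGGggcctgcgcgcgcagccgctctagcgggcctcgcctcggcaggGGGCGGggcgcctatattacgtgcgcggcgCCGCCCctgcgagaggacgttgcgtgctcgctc
Srsf11, chr3:158036557-158036856, minus strand: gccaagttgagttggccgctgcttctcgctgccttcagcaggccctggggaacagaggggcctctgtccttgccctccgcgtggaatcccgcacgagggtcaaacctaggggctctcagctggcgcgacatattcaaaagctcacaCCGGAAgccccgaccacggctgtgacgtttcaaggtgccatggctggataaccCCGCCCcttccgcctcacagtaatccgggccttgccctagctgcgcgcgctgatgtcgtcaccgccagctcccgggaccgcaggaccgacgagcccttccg
The windows of Hnrnpu, Srsf10 and Srsf11 held 41, 38 and 25 CG dinucleotides, and that of Hnrnpf held 7. Promoter windows were at hand for 38 of the 41 members, with a median of 28 CG dinucleotides beside 7 over 27025 genes. GGGCGG occurred on either strand in 27 of 38 member windows and in 35.9% of all windows. The CCAAT box occurred in 19 member windows and 37.9% of all. The ETS-type core occurred in 12 member windows and 15.2% of all. A search for TATAAA found 5 member windows and 14.2% of all. The background holds all genes with a window, while all members passed the filter on low counts, so these shares are not from genes of like expression. These are matches of letters only, and whether the factors bind there was not measured.

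Loss of 1 Tia1 allele in the presence of P301S tau was examined in P301S Tia1+/- vs. PS19. The medians were −0.046 for hnRNP and −0.010 for SR members beside 0.0097 over all genes. Leaving out 1 library gave hnRNP medians from −0.11 (without PS19 replicate 3) to −0.019 (without PS19 replicate 2) and SR medians from −0.082 (without PS19 replicate 2) to 0.048 (without P301S Tia1+/- replicate 3). Values were lower for 11 of 20 hnRNP and 12 of 21 SR members, against 48.5% of all genes. No member was called, against 0.24% of all genes (0.155% higher). The unadjusted p was under 0.05 for 3 hnRNP members and 1 SR member lower and 1 SR member higher (7.62% of all genes lower, 11.7% higher). The DESeq2 Wald test called Hnrnpu (lower) and Srrm4os (higher), and 4.93% of all genes. Libraries did not overlap for 5 hnRNP members lower and 2 higher and for 6 SR members lower and 3 higher, where 38.5% of all genes did not overlap, 18.2% lower and 20.2% higher.

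Hnrnpu gave −0.24 (SE 0.0701, adjusted p = 0.135) in this comparison, with all P301S Tia1+/- libraries below all PS19 libraries. Hnrnpd had 84.1, 113 and 105 CPM for WT, 124, 88.5 and 118 for Tia1+/-, 90.0, 117 and 95.5 for PS19 and 74.8, 80.6 and 80.4 for P301S Tia1+/- libraries. The P301S Tia1+/- libraries lay below every other library, at −0.36 (SE 0.150, adjusted p = 0.229) against PS19. Srsf5 gave −0.18 (SE 0.0820, adjusted p = 0.253). Among higher values, Srrm4os had 5.92, 4.23 and 3.19 CPM for WT, 2.62, 2.56 and 2.64 for Tia1+/-, 2.60, 3.12 and 1.87 for PS19 and 4.97, 4.68 and 5.83 for P301S Tia1+/- libraries. Its highest values were in WT replicate 1 and the P301S Tia1+/- libraries, which are also the libraries with the most bulb marker RNA, and the log2 fold change was 1.03 (SE 0.254, adjusted p = 0.102). Without WT replicate 1 in the shared fit, the adjusted p was 0.0476 for Hnrnpu and 0.0170 for Srrm4os, in a fit that called 10.3% of all genes. Hnrnpf, Hnrnpul1, Srsf2 and Tra2a lay higher in P301S Tia1+/- than in PS19 mice without overlap, at 0.19, 0.12, 0.24 and 0.21 (adjusted p = 0.374, 0.350, 0.262 and 0.556). With the labels of the Tia1+/- and P301S Tia1+/- libraries exchanged, 16 of 41 signs turned and the hnRNP median was 0.031. Of the 5 members with an unadjusted p under 0.05, Hnrnpd then gave 0.13, Hnrnpul2 0.12 and Srsf5 0.047, and Hnrnpf also turned (−0.10).

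P301S tau on the Tia1+/- background was examined in P301S Tia1+/- vs. Tia1+/-. The medians were −0.051 for hnRNP and −0.065 for SR members beside 0.0064 over all genes, and no member was called, like all other genes (background 0%). Lower values were found for 12 of 20 hnRNP and 12 of 21 SR members (48.9% of all genes). The unadjusted p was under 0.05 for 3 members of each family lower and 1 of each higher (6.66% of all genes lower, 8.92% higher), and the DESeq2 Wald test called Hnrnpu (lower) and Srrm4os (higher) and 2.75% of all genes. Libraries did not overlap for 5 hnRNP members lower and 1 higher and for 3 SR members lower and 1 higher (26% of all genes, either direction). Hnrnpul2, a relative of Hnrnpu, had 156, 178 and 191 CPM for WT, 219.6, 165 and 189.9 for Tia1+/-, 170.2, 191 and 166 for PS19 and 142, 150.1 and 149 for P301S Tia1+/- libraries. P301S Tia1+/- libraries lay below all others, at −0.38 (SE 0.113, adjusted p = 0.201) against Tia1+/-. Hnrnpd gave −0.49 (adjusted p = 0.212), Srsf5 −0.23 (adjusted p = 0.246) and Srrm4os 0.98 (adjusted p = 0.181). Exchanging the labels of these groups turns every sign in this comparison by construction. Leaving out 1 library gave hnRNP medians from −0.11 (without Tia1+/- replicate 2) to −0.017 (without P301S Tia1+/- replicate 2) and SR medians from −0.12 (without Tia1+/- replicate 1) to −0.0017 (without Tia1+/- replicate 3).

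By the titles used here, the comparisons PS19 vs. WT and P301S Tia1+/- vs. Tia1+/- each measure P301S tau and share no library. Values were lower in both for 9 of 20 hnRNP and 9 of 21 SR members, against 18.2% of all genes. Taken singly, 15 hnRNP and 17 SR members were lower in the first comparison and 12 and 12 in the second. Agreement beyond what these single counts imply was not tested. The hnRNPs were Hnrnpa0, Hnrnpa1, Hnrnpa2b1, Hnrnpa3, Hnrnph1, Hnrnph3, Hnrnpll, Hnrnpm and Hnrnpu. The SR members were Srsf1, Srsf4, Srsf5, Srsf6, Srsf9, Srsf11, Srrm1, Srrm2 and Srpk1. Hnrnpu was among them with −0.20 and −0.20, and Hnrnpa2b1 with −0.32 and −0.27. By contrast, Tra2a gave −0.92 and 0.091 and Hnrnpf gave −0.47 and 0.29. With the Tia1+/- and P301S Tia1+/- labels exchanged, every sign of the second comparison turns. Hnrnpu then gave −0.20 and 0.20 and Hnrnpa2b1 −0.32 and 0.27. Tra2a gave −0.92 and −0.091 and Hnrnpf −0.47 and −0.29, so the members named here depend on the labels.

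Whether the effect of the Tia1 allele differed with P301S tau was tested as an interaction, the log2 fold change of P301S Tia1+/- vs. PS19 minus that of Tia1+/- vs. WT. No member passed the threshold, and of all genes 0.00648% did. The medians were 0.080 for hnRNP and 0.021 for SR members beside 0.0049 over all genes. At an unadjusted p under 0.05 the interaction was above 0 for 3 hnRNP and 7 SR members and below 0 for 2 hnRNP members, where 13.6% of all genes were above 0 and 9.28% below. The DESeq2 Wald test called Hnrnpf, Srrm4os, Srsf3, Srsf10, Tra2a and Tra2b, all above 0, and 7.38% of all genes.

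Hnrnpf had an interaction of 0.76 (SE 0.156, adjusted p = 0.0618), from −0.58 without the transgene to 0.19 with it. Without WT replicate 1 it was 0.60 (adjusted p = 0.0260), a call, in a fit that called 1.55% of all genes. Srrm4os gave 1.80 (SE 0.361, adjusted p = 0.0618), from −0.77 to 1.03. Tra2b gave 0.59 (SE 0.149, adjusted p = 0.0758) and Tra2a 1.01 (adjusted p = 0.0813). With the bulb marker level as a covariate the interaction was 0.13 for Hnrnpf and 0.054 for Tra2b. The part of the bulb signal in these values was not tested. Srsf10 (0.80) and Srsf3 (0.66) had adjusted p values of 0.0820 and 0.0965. Hnrnpab, an A/B type hnRNP, had 194, 156 and 133 CPM for WT, 124, 124 and 129 for Tia1+/-, 129.5, 129 and 129.7 for PS19 and 144, 135 and 123 for P301S Tia1+/- libraries. WT replicate 1 was its highest library, and the interaction was 0.41 (SE 0.166, adjusted p = 0.177), or 0.24 without that library. The members below 0 at an unadjusted p under 0.05 were Hnrnpd (−0.49) and Hnrnpul2 (−0.39). Exchanged labels turned 14 of 41 signs of the interaction, among them Hnrnpd (to 0.49), Hnrnpul2 (to 0.38) and Srrm4os (to −0.16).

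A test of any difference among the 4 groups called no member by edgeR (0.395% of all genes), with 10 hnRNP and 9 SR members at an unadjusted p under 0.05 (22.2% of all genes). The smallest adjusted p, 0.0638, was shared by Srsf11 and Hnrnpu. The DESeq2 likelihood ratio test called 12 members and 11.8% of all genes. Without WT replicate 1 edgeR called 6 members and 8.93% of all genes.

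Other genes of the same machinery were read from lists, which were chosen with earlier results of these data known. Of 15 hnRNP proteins with other symbols, such as the polypyrimidine tract proteins and poly(C)-binding proteins, 12 lay below WT in PS19 mice, 10 in Tia1+/- and 10 in P301S Tia1+/- mice, beside 51%, 49.3% and 46.6% of all genes. Their medians were −0.11, −0.097 and −0.075. Those with an unadjusted p under 0.05 were 5 lower and 0 higher in PS19, 5 and 0 in Tia1+/- and 3 and 1 in P301S Tia1+/- mice against WT (9.73%, 10.5% and 9.46% of all genes lower). They were 0 lower and 3 higher against PS19 (7.62% of all genes lower, 11.7% higher) and 1 lower and 4 higher against Tia1+/- mice (6.66% lower, 8.92% higher). Syncrip (hnRNP Q), which binds mRNA in neuronal transport granules, fell in P301S Tia1+/- relative to WT mice, from 215 ± 24.5 to 144 ± 10.4 CPM (log2 fold change −0.58, SE 0.107, edgeR adjusted p = 0.0331), and gave −0.35 (adjusted p = 0.186) in PS19 and −0.53 (adjusted p = 0.0547) in Tia1+/- mice. Of all genes, 1.31% were called in P301S Tia1+/- vs. WT, 0.842% lower. Whether the call of Syncrip is kept under the alternatives was not recorded. Cirbp, a cold-inducible RNA-binding protein, was the leading gene of the list against PS19, at 0.40 (edgeR adjusted p = 0.0914), and against Tia1+/- mice, at 0.39 (edgeR adjusted p = 0.178). In the interaction it was Pcbp3, a poly(C)-binding protein, at 3.33 (edgeR adjusted p = 0.0711).

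Of 25 kinases, import receptors and partners of SR proteins, 24 were lower in PS19 than in WT, 21 in Tia1+/- and 24 in P301S Tia1+/- mice, with medians of −0.20, −0.15 and −0.24, where 51%, 49.3% and 46.6% of all genes lay below 0. This list, too, was chosen with earlier results of these data known. It holds U2af1 and Safb2, which the study named from the same libraries, so the counts are a description and not independent support. At an unadjusted p under 0.05, 9 were lower and 1 higher in PS19, 9 lower and 1 higher in Tia1+/-, and 13 lower and none higher in P301S Tia1+/- mice, beside 9.73%, 10.5% and 9.46% of all genes lower. Calls in P301S Tia1+/- vs. WT were Pnn (pinin), a component of the exon junction complex periphery, at −0.49 (SE 0.0784, edgeR adjusted p = 0.0194), and Safb, a scaffold attachment factor, at −0.35 (SE 0.0661, edgeR adjusted p = 0.0363). Pnn had 107 ± 4.50 CPM in WT and 76.0 ± 1.45 in P301S Tia1+/- mice, without overlap, and Safb had 91.2 ± 3.43 and 71.8 ± 2.43 CPM, without overlap. Of all genes, 1.31% were called in that comparison, 0.842% lower, and 10.8% lay lower without overlap. Whether the calls of Pnn and Safb are kept under the alternatives was not recorded. Without WT replicate 2 that comparison called 9 of 15703 genes. Against PS19 the same list had a median of −0.040, with 3 genes lower and none higher at an unadjusted p under 0.05 (7.62% of all genes lower, 11.7% higher). Against Tia1+/- mice its median was −0.024, with 4 lower and 1 higher (6.66% of all genes lower, 8.92% higher). No gene of the list was called in the other comparisons, and those with the smallest p were Acin1 in PS19 vs. WT (−0.37, edgeR adjusted p = 0.170), Pnn in Tia1+/- vs. WT (−0.27, edgeR adjusted p = 0.104), Pnisr against PS19 (−0.34, edgeR adjusted p = 0.140), Safb against Tia1+/- (−0.21, edgeR adjusted p = 0.218) and Scaf1 in the interaction (−0.58, edgeR adjusted p = 0.128).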

How the data were processed

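RNA-seq libraries were made from cortex of 12 mice, 3 in each of 4 groups, with 1 library per mouse. The authors deposited 1 table of raw read counts per gene symbol, and all 12 of its columns were used. The submitters' processing notes name TopHat2 2.0.6, featureCounts and the mouse build mm10. The gene annotation, the strand setting and the treatment of reads with several placements are not given in the sources used here. Groups were read from the library titles, since titles and genotype fields disagree on the transgene in both groups that lost a Tia1 allele.

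Genes were kept with edgeR's filter on low counts (filterByExpr), which left 15440, and total counts per library ranged from 11978962 to 19146484. Counts were normalized by TMM and fitted with edgeR's quasi-likelihood model (edgeR 4.0.16, limma 3.58.1, R 4.3.3) on all 12 libraries with 1 term per group. Every p was adjusted over all genes tested by the Benjamini-Hochberg method, and a gene was called at an adjusted p under 0.05. Levels are CPM from TMM library sizes, and levels per kilobase use the summed exon length of GENCODE genes on GRCm38. Promoter sequences are those of RefSeq on GRCm38.p6, which matched 38 of the 41 members. No 2 libraries of a group agreed within sampling noise.

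The members and the gene lists were chosen with earlier results of these data known. Values in each library are given for members called in any comparison, for the 2 hnRNP and 2 SR members with the smallest p in each comparison, and for the highest and lowest members per kilobase. Of the pathway lists, the called genes or else the gene with the smallest p are named. The fit was tested on simulated data of the PS19 vs. WT comparison with 15286 genes, where it recovered 1, 5, 30 and 37 of 50 genes changed 1.3-, 1.5-, 2- and 4-fold.

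Alternatives were DESeq2 size factors, the DESeq2 1.42.0 Wald test, no filter, at least 10 counts in every library, a replicate block, only the libraries compared, exchanged Tia1+/- and P301S Tia1+/- labels, and leaving out each library. An olfactory bulb covariate and offsets for GC content and gene length were added after seeing the data.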

Additional observations from a re-analysis of the deposited data

How the results depend on the processing

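Medians of both families kept their sign against WT under every alternative run, though with the bulb covariate the hnRNP median in Tia1+/- vs. WT was −0.0030. In that setting 10 of 20 hnRNP members were lower and 10 higher, both in PS19 vs. WT and in Tia1+/- vs. WT. Calls of single members were not kept under every alternative. With the DESeq2 Wald test the hnRNP and SR calls were 2 and 6 in PS19 vs. WT, 3 and 6 in Tia1+/- vs. WT, 1 and 1 against PS19, 1 and 1 against Tia1+/-, 5 and 6 in P301S Tia1+/- vs. WT and 1 and 5 in the interaction, and its likelihood ratio test gave 12. Over all genes this test called 431, 960, 805, 416, 982 and 1206 in that order, where edgeR called 0, 110, 37, 0, 203 and 1. No filter gave 0 hnRNP calls in Tia1+/- vs. WT, with 73 over all genes there and 122 in P301S Tia1+/- vs. WT. Replicate numbers did not pair the libraries: residuals of same-numbered libraries correlated above 0.1 in 7 of 18 pairs (median −0.0738, from −0.550 to 0.387). With the replicate block, Tia1+/- vs. WT and P301S Tia1+/- vs. WT had 0 calls in each family, and 9 and 18 over all genes. Only the libraries compared gave 0 and 0 calls in Tia1+/- vs. WT and in P301S Tia1+/- vs. WT, 3 and 3 against PS19 (3025 over all genes) and 1 SR call against Tia1+/- (334 over all genes).

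Exchanging the Tia1+/- and P301S Tia1+/- labels gave medians of −0.27 and −0.25 in Tia1+/- vs. WT, 0.031 for hnRNP against PS19, 0.051 and 0.065 against Tia1+/-, −0.19 and −0.15 in P301S Tia1+/- vs. WT and 0.25 and 0.27 in the interaction. It reversed Hnrnpd (0.13) and Srsf5 (0.047) against PS19, Hnrnpul2 (0.38), Hnrnpd (0.49), Srrm4os (−0.98) and Srsf5 (0.23) against Tia1+/-, and Srrm4os in the interaction (−0.16), as follows from the exchange. With the bulb level as a covariate the PS19 vs. WT medians were −0.011 and −0.077 with 1 SR call, and the hnRNP median in Tia1+/- vs. WT was −0.0030 with 0 calls. Medians were −0.24 and −0.31 against PS19 (4 and 3 calls), −0.24 and −0.34 against Tia1+/- (4 and 2 calls) and −0.27 and −0.27 in the interaction (2 and 1 calls). P301S Tia1+/- vs. WT had an hnRNP median of −0.34 with 9 and 8 calls, the test of any difference gave 15, and Hnrnph1 in PS19 vs. WT (0.082) and Hnrnpab in the interaction (−0.33) reversed; the cause was not tested. That setting called between 895 and 1541 of 15440 genes in these comparisons and 2196 in the test of any difference. GC and length offsets gave 0 and 0 calls and an hnRNP median of −0.13 in Tia1+/- vs. WT and 0 hnRNP calls in P301S Tia1+/- vs. WT.

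Leaving out 1 library moved the hnRNP medians from −0.21 to −0.11 in PS19 vs. WT, from −0.24 to −0.088 in Tia1+/- vs. WT, from −0.37 to −0.13 in P301S Tia1+/- vs. WT and from 0.012 to 0.11 in the interaction, and the SR median of the interaction from −0.0025 to 0.15. The hnRNP calls ranged from 0 to 2 in Tia1+/- vs. WT and in P301S Tia1+/- vs. WT, and from 0 to 1 against PS19, against Tia1+/- and in the interaction. The SR calls ranged from 0 to 7 in Tia1+/- vs. WT, from 0 to 5 in P301S Tia1+/- vs. WT, from 0 to 6 in the interaction and from 0 to 1 against PS19 and against Tia1+/-. Over all genes the same fits called 0 to 1 in PS19 vs. WT, 8 to 497 in Tia1+/- vs. WT, 9 to 1637 in P301S Tia1+/- vs. WT, 6 to 1606 against PS19, 0 to 956 against Tia1+/- and 0 to 1035 in the interaction. The test of any difference called 0 to 6 members (9 to 1398 of all genes). At 3 libraries a group, folds of 1.5 were mostly not recovered in simulated data (5 of 50), so a member without a call was not shown to be unaltered.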
